A study of Mus musculus with 374 samples.

Results

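The 6 genes described here are the E protein genes Tcf3, Tcf4 and Tcf12 and the genes of their inhibitors, Id1, Id2 and Id3. They were chosen by name and not by a cut on their values, though with earlier results of these data known. All 6 were found among the 19829 mouse genes of the count table. E proteins are basic helix-loop-helix transcription factors that bind DNA as dimers at E-boxes, short sites of the form CANNTG. Id proteins have the helix-loop-helix but lack the basic region that touches DNA, so an E protein paired with an Id protein does not bind. In blood formation E proteins are known for their need in B and T lineage development, while Id2 is known for its need in innate lymphoid cells, and Id3 is known as a target of antigen receptor signalling in the thymus.

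Single cells of 5 populations were sorted into 1 plate from 1 female C57BL/6 mouse aged 10 to 13 weeks, and mRNA was counted with an adapted CEL-seq2 protocol, which tags each captured mRNA molecule at its 3′ end with a unique molecular identifier (UMI). From the marrow came 44 wells of B lymphocytes (B220+ FSC-A low), 96 of erythroblasts (Ter119+ CD44+ FSC-A mid/high), 96 of granulocytes (Mac1+ Gr1+) and 95 of progenitor/stem cells (Lin- Kit+ Sca1+). The thymus gave 43 wells of T lymphocytes (CD3+ FSC-A low). No agent or allele distinguished the populations. Tissue of origin was shared by the marrow populations and cannot be told apart from cell type for the T lymphocytes. With 1 mouse each population was 1 sample, so no test between populations was possible, and wells were not used as replicates. All 95% intervals below are exact and cover counting error only.

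The 374 wells held 2241250 UMIs on mouse genes, and the median per well ran from 3028 in B lymphocytes to 7959 in progenitor/stem cells. No labelled well was left out for low depth, whereas the paper removed outlier cells before its own comparison. The lowest was a granulocyte well with 8 UMIs, and 94 of 96 granulocyte wells had at least 1000. Each population carried the markers of its label: its own list of 6 to 8 genes stood at 9558 counts per 1000000 UMIs (CPM) in B lymphocytes, 2675 in T lymphocytes, 151626 in granulocytes, 246693 in erythroblasts and 3527 in progenitor/stem cells. In the other 4 populations those lists reached at most 309, 58.9, 6693, 29188 and 230 CPM. No gene of a list was at 0 in its own population. The 374 wells carried 374 distinct barcodes. Of the B lymphocyte wells, 2 had index signals that went against their label. Well A8 had a Gr1 signal of 15209 arbitrary units, against at most 872 in the 42 others, 0 UMIs of the B list and 11.5% of its 4531 UMIs on granulocyte markers. Well B2 had a CD3 signal of 7905 against at most 542, but 36 UMIs of the B list and 0 of the T list. A8 held a single Tcf3 UMI and B2 no UMI of any member, and without both the B lymphocyte levels were 521 CPM for Tcf3, 311 for Tcf4 and 264 for Tcf12, within the intervals given below. Genes of the B and T lists, read in populations that should lack them, had a UMI in a median of 2.08% to 4.65% of wells and stood at a median of 3.00 to 9.98 CPM. The highest such share was 51.2% of T lymphocyte wells, for the immunoglobulin gene Ighm. No cut was set from these values, and where the text speaks of reference genes it means these.

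Over all wells the 6 genes gave 970 UMIs, of which 825 came from E protein genes and 145 from Id genes. Tcf4 had 384 UMIs in 141 wells and Tcf3 had 266 in 161 wells. Tcf12 gave 175 UMIs in 111 wells. Id2 had 116 UMIs in 53 wells, while Id1 and Id3 had 14 and 15. Id1 and Id3 are therefore described by counts alone in most populations, since 3 UMIs, the number taken here as the limit that a count of 0 allows, stand for 22.1 CPM in B lymphocytes and 3.59 CPM in progenitor/stem cells.

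Each member was set against the reference genes of the same wells, of which there were 7 in each lymphocyte population and 14 in each of the others. No reference gene reached the share of wells of Tcf3 in B lymphocytes, erythroblasts and progenitor/stem cells, of Tcf4 in B lymphocytes and progenitor/stem cells, or of Tcf12 in B lymphocytes and erythroblasts. Ighm alone did so for Tcf3 in T lymphocytes and granulocytes, Tcf4 and Id1 in granulocytes, Tcf12 in T lymphocytes and progenitor/stem cells, and Id2 in T lymphocytes and granulocytes. Ighm and Vpreb3 did for Tcf4 in T lymphocytes and erythroblasts, Tcf12 in granulocytes and Id3 in T lymphocytes, and Cd4 alone for Id3 in B lymphocytes. The values nearest the reference genes were Id2 in progenitor/stem cells, which 4 of 14 reached, Id2 in erythroblasts, which 6 of 14 reached, and Id1 in T lymphocytes, which 6 of 7 reached.

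**Figure D1:**
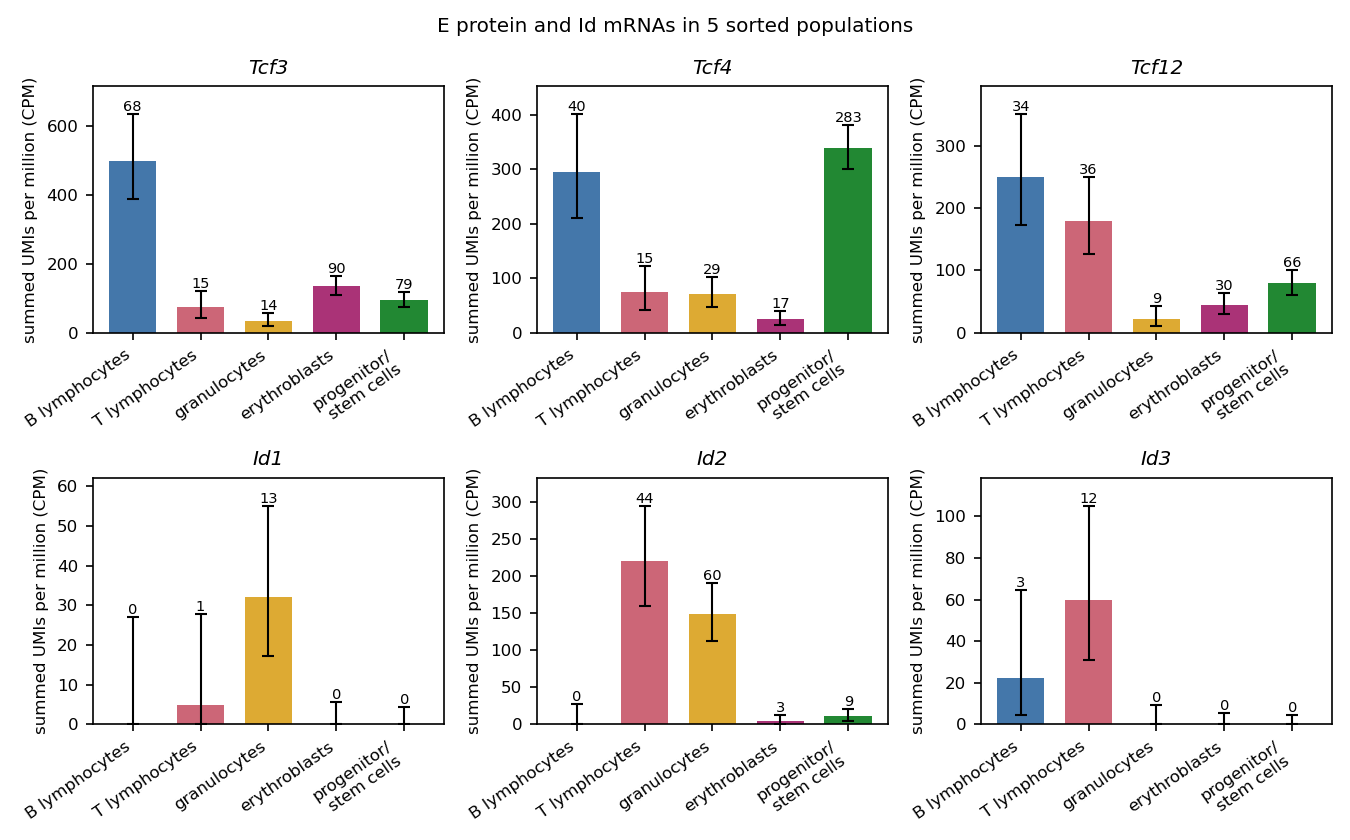
Summed UMIs per 1000000 UMIs on mouse genes (CPM, linear axis from 0) of each gene in the 5 sorted populations, with exact 95% Poisson intervals as error bars and the number of UMIs above each bar. Tcf3 and Tcf12 stood highest in B lymphocytes, Tcf4 in progenitor/stem cells and B lymphocytes, and Id2 in T lymphocytes and granulocytes.

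Tcf3, which encodes the E2A proteins, lies on the minus strand of chromosome 10 from 80409514 to 80433647 (GENCODE M21, GRCm38), and no other annotated gene overlaps it. Its level was 501 CPM (interval 389 to 635) in B lymphocytes, 135 (109 to 166) in erythroblasts, 94.6 (74.9 to 118) in progenitor/stem cells, 74.9 (41.9 to 123) in T lymphocytes and 34.7 (19.0 to 58.2) in granulocytes. B lymphocytes thus stood alone at the top, 3.71-fold above erythroblasts, and the B and erythroblast intervals did not overlap. The size of this step depended on the scaling. Against progenitor/stem cells the log2 ratios of B lymphocytes and erythroblasts were 2.40 and 0.51 by CPM. They were 2.70 and 1.53 under scran size factors, and 1.08 and 0.40 per UMI of ERCC spike-in RNA. Erythroblasts lay 1.43-fold above progenitor/stem cells, with a log2 interval of 0.06 to 0.97. The neighbouring steps from progenitor/stem cells to T lymphocytes (log2 ratio 0.34, interval -0.47 to 1.24) and from T lymphocytes to granulocytes (1.11, -0.04 to 2.27) did not exceed counting error. A UMI of Tcf3 was found in 30 of 44 B lymphocyte wells (68.2%) and in 13 of 96 granulocyte wells (13.5%).

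The order of wells with Tcf3 held at equal depth. With each well thinned to 2000 UMIs, which kept 33 B lymphocyte, 42 T lymphocyte, 86 granulocyte, 95 erythroblast and 95 progenitor/stem wells, Tcf3 was expected in 52.7% of B lymphocyte wells, 24.4% of erythroblast wells, 17.0% of progenitor/stem wells, 12.1% of T lymphocyte wells and 4.77% of granulocyte wells. Among B lymphocytes 13 wells had 1 UMI, 8 had 2 and 9 had 3 or more, up to 7. No T lymphocyte well had more than 2.

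Tcf12, which encodes HEB, lies on the minus strand of chromosome 9 from 71842688 to 72111871. The annotation places 11 other genes within it, none sharing an exon, and 9 of them had 194 UMIs of their own in the table. Whether the counting used strand is not given in the sources used here. Tcf12 stood at 250 CPM (173 to 350) in B lymphocytes and 180 (126 to 249) in T lymphocytes, a step of 1.39-fold whose log2 interval of -0.24 to 1.20 held 0. Progenitor/stem cells followed at 79.1 CPM (61.1 to 101), below T lymphocytes by 2.27-fold, then erythroblasts at 45.0 (30.4 to 64.2), a step that turned under scran and TMM factors, and granulocytes at 22.3 (10.2 to 42.3). The last step, 30 against 9 UMIs, had a log2 interval of -0.10 to 2.27. Tcf12 was therefore the E protein gene with the highest level in T lymphocytes. It held 54.5% of the E protein UMIs there, against 23.9% in B lymphocytes and 15.4% in progenitor/stem cells.

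Of the 6 genes, 4 had promoter windows in the RefSeq set used here (GRCm38.p6, from 250 bases before to 50 after a gene start): Tcf3, Tcf12, Id2 and Id3. They are shown because CANNTG is the site that E proteins themselves bind. The motif reads the same on both strands as a pattern and was present in 72.3% of all 32851 windows, with a mean of 1.39 per window. The narrower form CAGCTG was in 16.3% of windows, and CAGGTG or its reverse complement CACCTG in 20.2%. The Id3 window held no CANNTG, and none of the windows of these genes held CAGGTG or CACCTG. The 6 windows of these 4 genes held 6 matches, and the 4 matches outside annotated exons are printed 5′ to 3′ on the gene's strand, with the hexamer in capitals and up to 10 bases on each side. Tcf12 had 3 windows, from alternative starts. The Id2 site and the first Tcf12 site lie inside the annotated span of their gene, since other annotated transcripts start further upstream, while the Tcf3 site and the second Tcf12 site lie outside it. A match is a description of the letters and no evidence of binding.
Id2, chr12:25096273-25096298, 196 bases before the start of its window's RefSeq transcript: tttgccacccCAGCTGggctctcgcc
Tcf3, chr10:80433674-80433699, 54 bases before the start of its window's RefSeq transcript: tgggcgtggtCACTTGggggcgtggc
Tcf12, chr9:72111335-72111360, 149 bases before the start of its window's RefSeq transcript: cagggcggccCAAGTGggaggtggag
Tcf12, chr9:72112044-72112069, 240 bases before the start of its window's RefSeq transcript: agatgctgccCAGCTGcgtccccgtc
The Id2 window and the last Tcf12 window thus share the same hexamer, CAGCTG, which 16.3% of all windows held.

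Id2 lies on the minus strand of chromosome 12 from 25093799 to 25097140 and overlaps no other annotated gene. It had 44 UMIs in T lymphocytes (220 CPM, 160 to 295), 60 in granulocytes (149 CPM, 113 to 191), 9 in progenitor/stem cells (10.8 CPM, 4.93 to 20.5), 3 in erythroblasts (4.50 CPM) and 0 in B lymphocytes. T lymphocytes and granulocytes did not differ beyond counting error (log2 ratio 0.56, -0.03 to 1.15), and granulocytes were 13.8-fold above progenitor/stem cells (log2 interval 2.77 to 4.98), where the count was 9 UMIs. In B lymphocytes 0 of 44 wells had Id2, which allows a share of up to 6.82% of wells with a UMI and a level of up to 22.1 CPM by the limit of 3 UMIs, or 8.04% and 27.2 CPM by the upper bound of the exact interval. A UMI was found in 7.37% of progenitor/stem wells.

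The T lymphocyte value of Id2 rested largely on 1 well. That well, P3, held 26 of the 44 UMIs (59.1%), and no other T lymphocyte well had more than 3. It also held 5 of the 15 Tcf4 UMIs of this population. Without it Id2 stood at 92.0 CPM in T lymphocytes, from 18 UMIs in 12 of 42 wells. P3 had 4638 UMIs in all and a CD3 signal of 5530 arbitrary units, against a median of 10475 over the T lymphocytes. Of the T list it had 6 UMIs from 4 of 7 genes, 0.129% of its UMIs against a median of 0.225% in the other wells. The list for NK and innate lymphoid cells, cells that are known for Id2, was at 0 in P3. Of its 6 genes 4 were measured, and 12 of 43 T lymphocyte wells had a UMI of it, so that 0 says little.

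In granulocytes Id2 was spread more evenly. It had a UMI in 30 of 96 wells (31.2%, 22.2 to 41.5), of which 15 had 1 UMI, 6 had 2 and 9 had 3 or more, up to 5. Thinned to 2000 UMIs, it was expected in 20.4% of granulocyte wells, 17.1% of T lymphocyte wells, 2.04% of progenitor/stem wells and 0.895% of erythroblast wells.

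Id1 lies on the plus strand of chromosome 2 from 152736251 to 152737410. Of its 14 UMIs, 13 were in granulocytes (32.2 CPM, 17.2 to 55.1), each in a different well, and 1 was in a T lymphocyte. It had 0 UMIs in B lymphocytes, erythroblasts and progenitor/stem cells, where 3 UMIs would be 22.1, 4.50 and 3.59 CPM. Against the limit of 3 UMIs for progenitor/stem cells the granulocyte level was at least 8.97-fold higher, and the exact lower bound of the log2 ratio was 2.66. Between granulocytes and T lymphocytes the log2 interval was -0.04 to 8.10, so that step did not exceed counting error.

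Id3 lies on the plus strand of chromosome 4 from 136143497 to 136145755. It had 12 UMIs in 8 of 43 T lymphocyte wells (59.9 CPM, 30.9 to 105), 3 in B lymphocytes (22.1 CPM, 4.56 to 64.6) and 0 in granulocytes, erythroblasts and progenitor/stem cells. Against the limit of 3 UMIs for progenitor/stem cells T lymphocytes were at least 16.7-fold higher, with an exact lower bound of 3.53 on the log2 scale. Their ratio to B lymphocytes (log2 1.44, -0.45 to 3.90) did not exceed counting error. No T lymphocyte well had more than 2 UMIs of Id3.

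Tcf4 encodes an E protein known for its need in plasmacytoid dendritic cells. It lies on the plus strand of chromosome 18 from 69343356 to 69689079, where 1 other annotated gene overlaps it without sharing an exon. It stood at 339 CPM (301 to 381) in progenitor/stem cells and 295 (210 to 401) in B lymphocytes, which did not differ beyond counting error (log2 ratio 0.20, -0.28 to 0.72). T lymphocytes at 74.9 CPM (41.9 to 123) and granulocytes at 71.9 (48.1 to 103) formed a second pair of like level (0.06, -0.95 to 1.01). Erythroblasts were lowest at 25.5 CPM (14.9 to 40.8). B lymphocytes exceeded T lymphocytes by 3.93-fold. In progenitor/stem cells 86 of 95 wells (90.5%, 82.8 to 95.6) had a UMI of Tcf4, and 44 had 3 or more, up to 12. Thinned to 2000 UMIs, Tcf4 was expected in 48.1% of progenitor/stem wells, 32.9% of B lymphocyte wells, 10.7% of T lymphocyte wells, 8.35% of granulocyte wells and 5.02% of erythroblast wells.

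Among granulocytes 1 well, I17, held 12 of the 29 Tcf4 UMIs (41.4%), and no other had more than 3. Without it Tcf4 stood at 42.5 CPM in granulocytes, from 17 UMIs in 13 of 95 wells. The 8 granulocyte markers made up 0.341% of the UMIs of I17, against a median of 16.6% in the other granulocyte wells. Markers of plasmacytoid dendritic cells made up 1.02% of its UMIs, against at most 0.122% in any other granulocyte well. They comprised 24 UMIs of Irf8, 11 of Bst2, 3 of Siglech and 1 of Pacsin1, and the other 95 wells together had 39, 6, 0 and 1. Its Gr1 signal was 1170 arbitrary units against a median of 18781 in the other wells, its CD44 signal 2037 against 19262 and its Sca1 signal 906 against 62.0, the highest of the population. It had a single UMI of S100a9, of which the others had 21277.

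**Figure D2:**
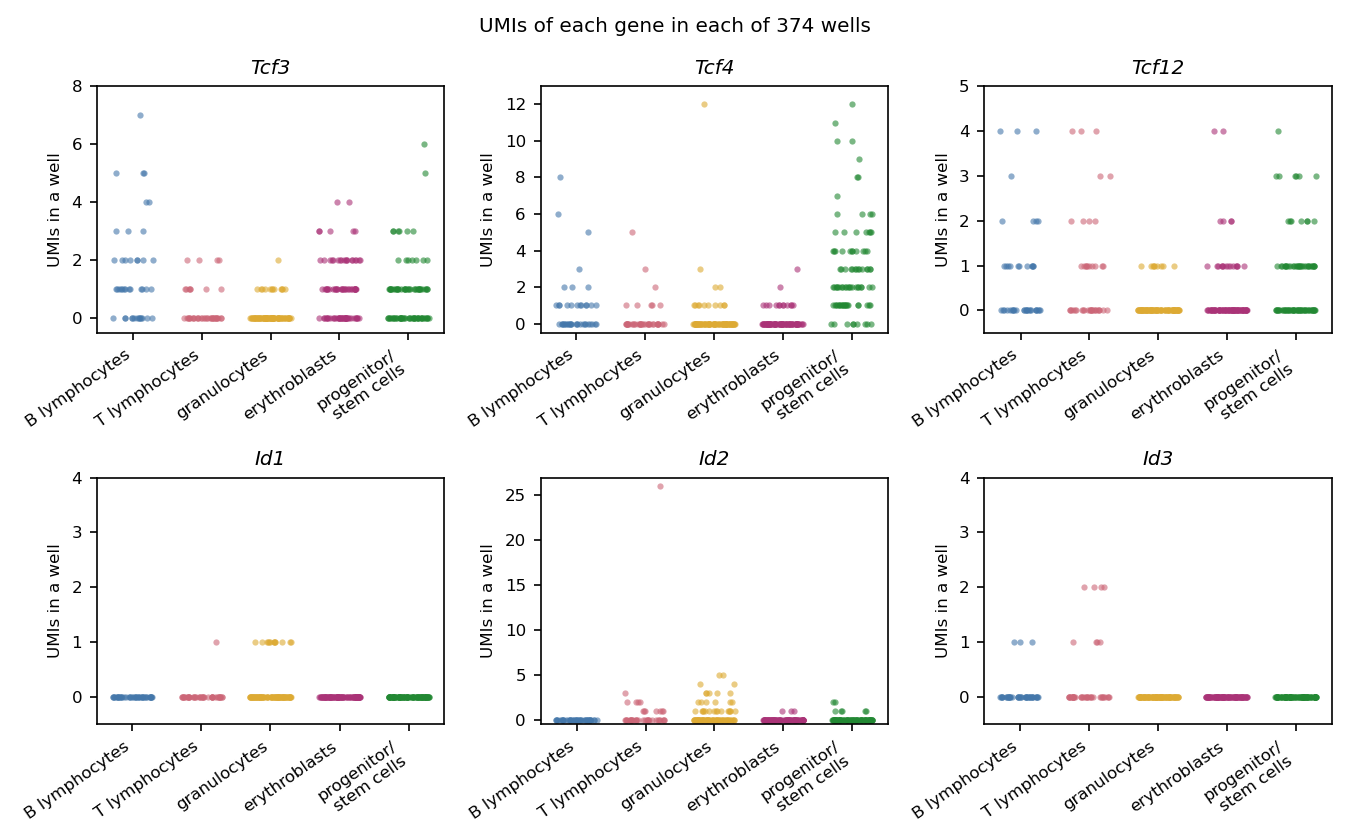
UMIs of each gene (y axis) in each of the 374 wells, 1 point per well, by sorted population and shifted sideways at random for display. Single wells stand apart for Tcf4 in granulocytes (12 UMIs, the next 3) and for Id2 in T lymphocytes (26 UMIs, the next 3), while Tcf4 is spread over most progenitor/stem wells.

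Sums over the 3 E protein genes and the 3 Id genes were then set side by side. Each UMI stands for 1 tagged 3′ end, so counts were not scaled by transcript length, although capture may differ between genes. B lymphocytes had 142 E protein UMIs (1046 CPM, 881 to 1232) and 3 Id UMIs (22.1 CPM, 4.56 to 64.6). Progenitor/stem cells had 428 (513 CPM, 465 to 564) and 9 (10.8 CPM). Erythroblasts had 137 (205 CPM, 173 to 243) and 3 (4.50 CPM). In these 3 populations E proteins held 97.9% of the combined UMIs, with lower interval bounds of 93.9% to 96.1%. T lymphocytes had 66 E protein UMIs (329 CPM, 255 to 419) and 57 Id UMIs (284 CPM, 215 to 369), a share of 53.7% (44.4 to 62.7). Granulocytes had 52 (129 CPM, 96.2 to 169) and 73 (181 CPM, 142 to 227), a share of 41.6% (32.9 to 50.8). With all wells kept, the intervals of T lymphocytes and granulocytes overlapped each other and lay below those of the other 3 populations. Without well P3 the T lymphocyte share was 65.9%, above its interval with all wells. Without I17 that of granulocytes was 34.8%, inside its interval. Intervals without these wells were not computed, so the overlap is read for all wells only.

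The share in T lymphocytes and granulocytes depended on Id2 in particular. Leaving Id2 out raised it to 83.5% and 80.0%. In T lymphocytes 26 of 43 wells had an E protein UMI and 17 had an Id UMI, and 11 had both, against 10.3 expected from the product of the shares. In granulocytes 24 of 96 wells had an E protein UMI, 38 had an Id UMI and 12 had both, against 9.50 expected. E protein and Id mRNA were thus found in the same wells about as often as their separate shares give, and wells of greater depth are more likely to show both.

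**Figure D3:**
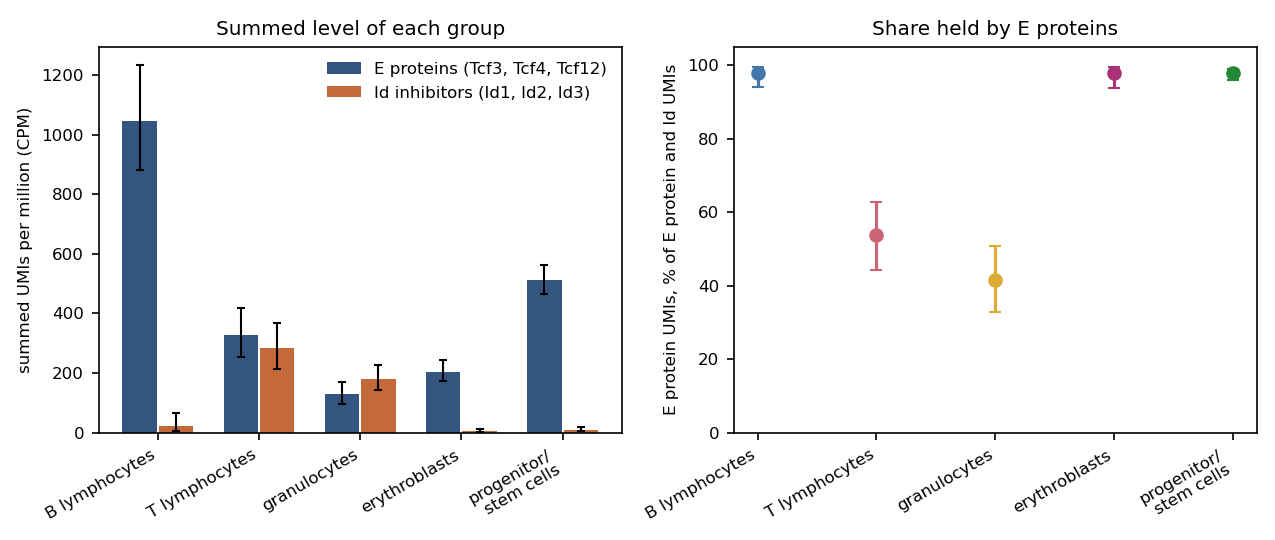
Left, summed CPM of the E protein genes (Tcf3, Tcf4, Tcf12) and of the Id genes (Id1, Id2, Id3) in each sorted population, on a linear axis from 0, with exact 95% Poisson intervals. Right, E protein UMIs as a percent of E protein and Id UMIs, with exact 95% binomial intervals: 97.9% in B lymphocytes, erythroblasts and progenitor/stem cells, 53.7% in T lymphocytes and 41.6% in granulocytes.

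The makeup of the E protein sum also differed. Tcf3 gave 47.9% of it in B lymphocytes and 65.7% in erythroblasts, Tcf12 gave 54.5% in T lymphocytes, and Tcf4 gave 66.1% in progenitor/stem cells and 55.8% in granulocytes. All 3 genes were seen together in 24 of 95 progenitor/stem wells, 10 of 44 B lymphocyte wells, 2 of 43 T lymphocyte wells, 2 of 96 erythroblast wells and 1 of 96 granulocyte wells. In B lymphocytes Tcf4 and Tcf12 shared 13 wells, against 8.20 expected from their separate shares. Tcf3 and Tcf12 shared 17 erythroblast wells, against 11.7 expected. In granulocytes Tcf4 and Tcf12 shared 7 wells, against 1.31 expected. The other pairs follow, with expected numbers in brackets. Tcf3 and Tcf4 shared 13 (13) B lymphocyte, 4 (2.05) T lymphocyte, 4 (1.9) granulocyte, 8 (8.17) erythroblast and 47 (46.2) progenitor/stem wells. Tcf3 and Tcf12 shared 15 (13) B lymphocyte, 8 (4.86) T lymphocyte, 2 (1.22) granulocyte and 26 (23.6) progenitor/stem wells. Tcf4 and Tcf12 shared 2 (3.53) T lymphocyte, 2 (2.92) erythroblast and 40 (39.8) progenitor/stem wells. Depth differed between wells, and its part in these counts was not tested.

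Levels were next compared across all genes with at least 20 UMIs in both populations together, taking a fold of 2 or more as a call and setting counts under 3 to 3. From B to T lymphocytes, 3064 genes were compared, and 20.1% were higher and 9.86% lower in T lymphocytes (616 and 302 genes, or 441 and 431 after centring on the median gene). Of the 4 members that passed the UMI minimum (Tcf3, Tcf4, Tcf12 and Id2), Tcf3 was 6.69-fold lower in T lymphocytes (log2 -2.74, -3.66 to -1.92), below all but 2.61% of genes, and Tcf4 was 3.93-fold lower (-1.98, -2.94 to -1.09), below all but 4.31%. Id2, taken against the limit of 3 UMIs, was at least 9.94-fold higher, with an exact lower bound of 2.95 on the log2 scale. Only its 44 UMIs in T lymphocytes brought Id2 past the UMI minimum, so its place among all genes is not read here. Without well P3 18 UMIs remained, under the minimum of 20, and the bound was 2.06 on the log2 scale. Tcf12 was not past the fold (-0.48, -1.20 to 0.24). The median gene lay at 0.27.

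Against progenitor/stem cells, 7297 genes were compared for B lymphocytes, of which 7.51% were higher and 19.3% lower in B lymphocytes (548 and 1410, or 879 and 779 after centring). Of 3 members that passed the minimum, Tcf3 was 5.29-fold higher (log2 2.40, 1.91 to 2.89) and Tcf12 3.17-fold higher (1.66, 1.02 to 2.28), above 98.3% and 96.7% of genes. Tcf4 was not past the fold (-0.20, -0.72 to 0.28). Per ERCC UMI, a scaling to spike-in RNA that keeps differences in RNA per cell and put the median gene at -1.64, the ratios were 1.08 for Tcf3, 0.34 for Tcf12 and -1.53 for Tcf4, so that Tcf12 was no longer past the fold and Tcf4 was. For T lymphocytes, 7565 genes were compared, of which 9.17% were higher and 19.4% lower (694 and 1466, or 1049 and 912 after centring). Id2 was 20.4-fold higher (4.35, 3.29 to 5.57, or 3.09 without well P3), Tcf12 2.27-fold higher (1.18, 0.56 to 1.79) and Tcf4 4.53-fold lower (-2.18, -3.04 to -1.43). Tcf3 was not past the fold (-0.34, -1.24 to 0.47). Per ERCC UMI Tcf12 was at 0.29, no longer past the fold, and Tcf3 at -1.23, past it, with the median gene at -1.16. These 4 comparisons with progenitor/stem cells share those cells, so their values are not independent of each other.

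Granulocytes and erythroblasts spend many of their UMIs on a few genes, and the median gene lay at -0.95 in granulocytes and -0.98 in erythroblasts against progenitor/stem cells, so member values are given relative to it as well. In granulocytes 11.7% of 7826 genes were higher and 48.2% lower (913 and 3769, or 1916 and 1658 after centring). Id2 was 13.8-fold higher (log2 3.79, 2.77 to 4.98), which is 4.74 above the median gene. Only its 60 UMIs in granulocytes, beside 9 in progenitor/stem cells, brought Id2 past the UMI minimum, so its place among all genes is not read here. Tcf3, Tcf4 and Tcf12 were each past the fold in the lower direction, at -1.45, -2.24 and -1.83, which is -0.50, -1.29 and -0.87 relative to the median gene. Only Tcf4 stayed past the fold after that centring, and under scran size factors its ratio was -1.41. In erythroblasts 12.1% of 8076 genes were higher and 49.4% lower (974 and 3989, or 2009 and 2454 after centring). Tcf4 was 13.3-fold lower (-3.73, -4.53 to -3.03), below all but 4.27% of genes and -2.75 relative to the median gene. Tcf3 stood 0.51 higher, which is 1.49 relative to the median gene and 1.53 under scran size factors. Tcf12 stood at -0.81 (-1.49 to -0.17), which is 0.17 relative to the median gene and turned to 0.20 under scran size factors and 0.05 under TMM factors, so its direction is not settled here.

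**Figure D4:**
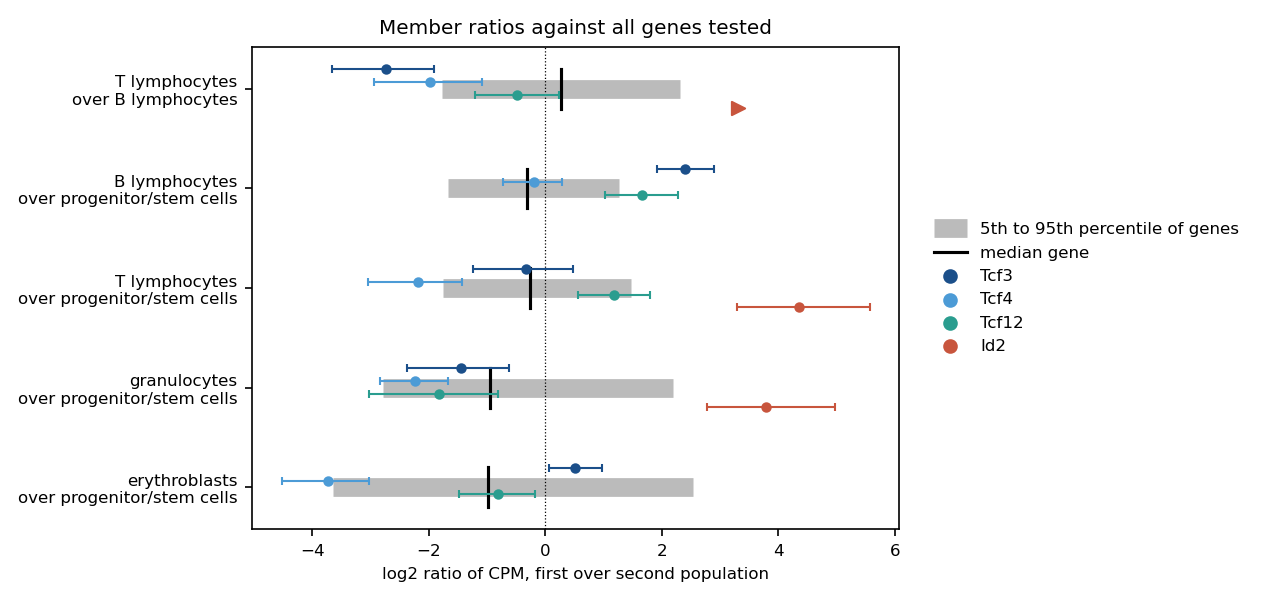
Log2 ratios of CPM between populations (x axis) for the members with at least 20 UMIs in the pair (points, with exact 95% intervals), against the 5th to 95th percentile (grey bar) and median (black line) of all genes compared. The triangle marks a lower bound for Id2, which was at 0 in B lymphocytes. Tcf3 and Tcf4 lie below the grey bar in T over B lymphocytes, and Id2 lies above it in the 3 comparisons where it was compared. In each of these 3, Id2 passed the minimum only through the population where it was high, so its place among all genes is not read. Without well P3 its bound in T over B lymphocytes is 2.06, inside the bar, from 18 UMIs, under the minimum.

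Cells of each population also carried index measurements, the antibody fluorescence or light scatter recorded when the cell was sorted. Wells above the population's median were set against the others for 7 channel and population pairs, giving 24 values for members with at least 10 UMIs, of which 5 had an interval that did not hold 0. Among all genes with at least 10 UMIs that share was 6.06% for CD3 in T lymphocytes, 7.04% for FSC-A in B lymphocytes, 22.6% for CD44 in erythroblasts and 24.0% for Gr1 in granulocytes. In progenitor/stem cells it was 7.04% for Sca1, 8.57% for c-Kit and 6.65% for FSC-A. All 5 member values were lower in the wells with more signal. Of all genes, 1.98% had an interval below 0 for CD3 in T lymphocytes and 2.87% for FSC-A in B lymphocytes. For Gr1 in granulocytes it was 15.4%, and for c-Kit in progenitor/stem cells 3.6%. Each value was also read without the 3 lower-signal wells with most of its UMIs. The interval then held 0 for Id2 by CD3, Tcf4 by FSC-A and Tcf4 by Gr1, but not for Id2 by Gr1 and Tcf4 by c-Kit.

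In progenitor/stem cells Tcf4 was 251 CPM (205 to 304) in the 47 wells above the c-Kit median and 426 CPM in the 48 others, a log2 ratio of -0.77 (-1.13 to -0.41). Between the 31 wells with most and the 31 with least c-Kit signal the ratio was -0.86. Tcf3 (-0.54, -1.23 to 0.14) and Tcf12 (-0.07, -0.81 to 0.67) did not differ there beyond counting error. The B list moved the same way, from 173 UMIs in the wells with less c-Kit to 43 in those with more, while the progenitor/stem list had 1473 and 1471. Of the 216 UMIs of the B list in these cells, 168 were of Ighm and 29 of Cd79b, so the list was read mostly from Ighm. The part of the B list in the Tcf4 value was not tested. By Sca1 and by FSC-A, none of the 3 E protein genes differed beyond counting error in progenitor/stem cells.

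In B lymphocytes Tcf4 was 150 CPM in the 22 wells of larger FSC-A, a measure of cell size, and 466 CPM in the 22 others (log2 -1.64, -2.79 to -0.60). Tcf3 ran the other way without passing counting error, at 598 and 386 CPM (0.63, -0.12 to 1.42). The B list itself was alike, at 9653 and 9445 CPM. Wells A4, A10 and A12 held 8, 6 and 5 of the 29 Tcf4 UMIs in the wells of smaller FSC-A. Without these 3 wells, chosen for their Tcf4 counts, 11 and 10 UMIs remained, and the ratio was -0.49 (-1.86 to 0.90). Wells with a UMI of Tcf4 numbered 8 and 11. Granulocyte marker RNA stood at 9884 and 2923 CPM, and at 3094 and 2789 CPM when wells A8 and B2 were left out and the others divided at their own median, where Tcf4 was at 172 and 476 CPM (-1.47).

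In granulocytes Id2 had 11 UMIs in the 48 wells above the Gr1 median and 49 in the 48 others (log2 -1.62, -2.71 to -0.65), and Tcf4 had 4 and 25 (-2.10, -4.09 to -0.57). Without well I17 these ratios were -1.60 and -1.15. Wells I17, H17 and I13 had the most Tcf4 UMIs among those of lower Gr1. Without these 3 wells, chosen for their counts, 4 and 8 UMIs remained, and the Tcf4 ratio was -0.66 (-2.84 to 1.24). Id2 without its own 3 such wells (G16, J10 and I21) was at -1.23 (-2.36 to -0.22). Monocyte markers differed far more, with 949 UMIs in the wells of lower Gr1 and 21 in the others. A monocyte marker was seen in 39 granulocyte wells, of which 10 also had Id2 against 12.2 expected from the separate shares, and 10 also had Tcf4 against 5.69 expected. Markers of plasmacytoid dendritic cells, a list without Tcf4, had 80 UMIs in the wells of lower Gr1 and 5 in the others (log2 -3.46, -5.12 to -2.18). They were seen in 22 wells, which included 10 of the 14 wells with Tcf4, against 3.21 expected, and 8 of the 9 with Tcf12, against 2.06. Well I17 held 39 of the 85 UMIs of this list. In the 95 other wells Irf8 had 39 UMIs in 16 wells, Bst2 had 6, Pacsin1 1 and Siglech 0. Outside I17 the list was thus read mostly from Irf8. Tcf4 also shared 11 wells with the B list, against 7.44 expected, and Tcf12 shared 8, against 4.78. With monocyte markers Tcf12 shared 7, against 3.66. The T list lay below, with 1 well against 2.48 for Tcf4 and 1 against 1.59 for Tcf12. So did the progenitor/stem list for Tcf12, with 3 against 4.03. Median depth was 5026 UMIs in granulocyte wells with Tcf4 and 3597 without, and 5483 and 3609 for Tcf12. The part of these lists and of depth in the Tcf4 value was not tested. Id1 was at 7 and 6 UMIs.

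In T lymphocytes Id2 had 10 UMIs in the 21 wells above the CD3 median and 34 in the 22 others (log2 -1.60, -2.79 to -0.55), but well P3 was among the latter, and without it the ratio was 0.42. Markers of NK and innate lymphoid cells had 6 and 24 UMIs. In erythroblasts none of the 3 E protein genes differed by CD44 beyond counting error, with Tcf3 at 133 and 137 CPM.

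**Figure D5:**
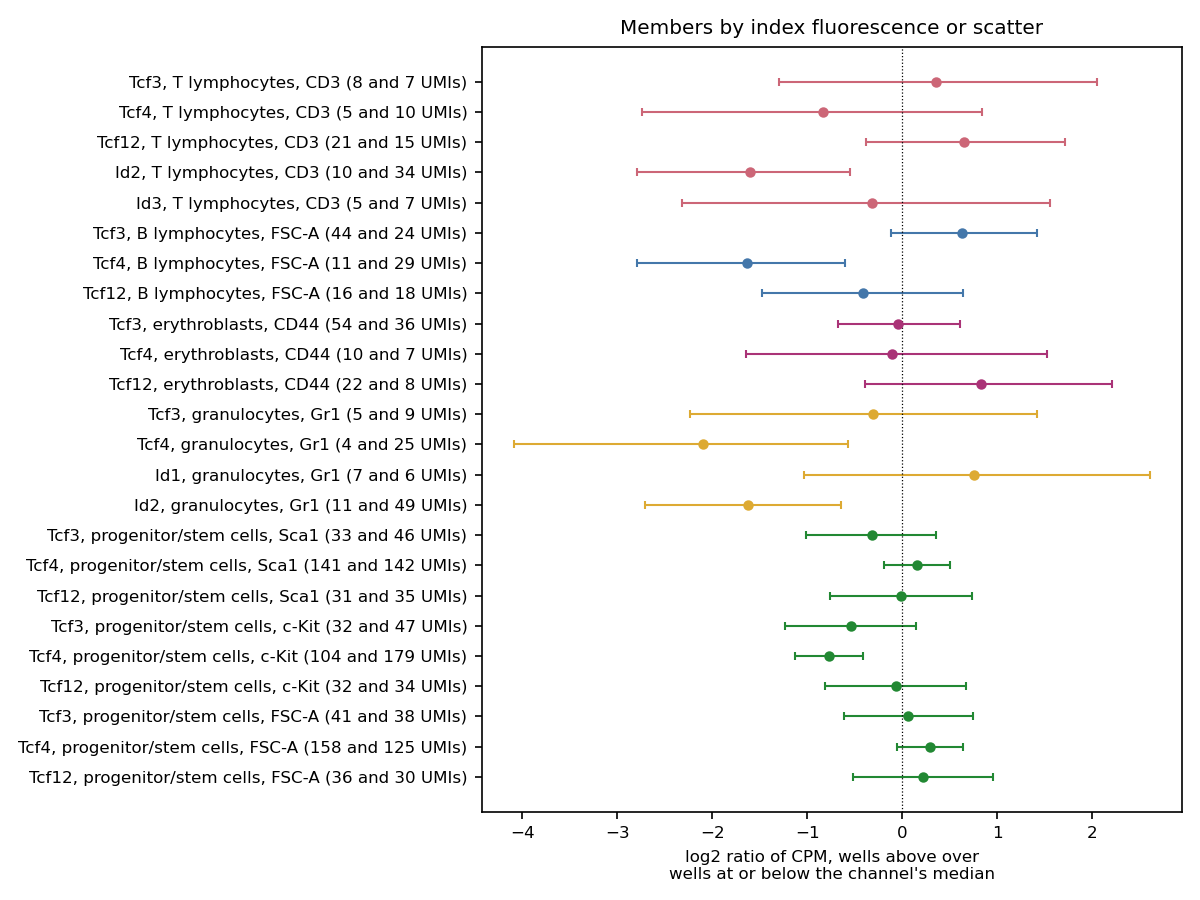
Log2 ratio of CPM between wells above and wells at or below the population's median of an index channel (x axis), with exact 95% intervals, for each member with at least 10 UMIs in the population. The UMIs in each set of wells are given beside the name, and the clearest departure by number of UMIs is Tcf4 by c-Kit in progenitor/stem cells (104 and 179 UMIs).

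The partners of E proteins were read from a list of 11 genes, of which 9 were measured. Lmo2, a bridging cofactor in complexes with Tal1, stood at 956 CPM in progenitor/stem cells and 517 in erythroblasts, against 54.9 to 116 in the others. Cbfa2t3, a corepressor that binds E proteins, was highest in progenitor/stem cells at 458 CPM, and Lmo4 in B lymphocytes (420) and granulocytes (359). Tal1, a blood-specific dimer partner of E proteins, was 210 CPM in erythroblasts and 64.7 in progenitor/stem cells, and 7.43 to 29.5 elsewhere. It is named here after its values were seen. In T lymphocytes against progenitor/stem cells, 4 of the 7 list genes compared were lower and 0 higher, with a median log2 ratio of -2.11 beside -0.26 for all genes, of which 19.4% were lower. In granulocytes 5 of 7 were lower and 1 higher (median -2.89 beside -0.95), where 48.2% of all genes were lower. In B lymphocytes 4 of 7 were lower and 1 higher (-1.10 beside -0.32), against 19.3% lower of all genes. In erythroblasts 4 were lower and 1 higher (-1.18 beside -0.98), and 49.4% of all genes were lower. Between T and B lymphocytes 4 were compared, with 1 higher and 2 lower in T lymphocytes (-1.46 beside 0.27), against 20.1% and 9.86% of all genes.

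Genes known as E protein targets in the B lineage were measured for 10 of 11. All 6 with enough UMIs were higher in B lymphocytes than in progenitor/stem cells, with a median log2 ratio of 6.82, against 7.51% of all genes. Some of them also serve as markers of the B label, so that count says little beyond the sort. Vpreb3 stood at 1480 CPM in B lymphocytes and Cd79a, part of the B cell receptor, at 1149, each under 45 CPM in the other populations. Between T and B lymphocytes, 5 of 6 were lower and 0 higher in T lymphocytes, against 9.86% and 20.1% of all genes. In T lymphocytes, granulocytes and erythroblasts against progenitor/stem cells, 2, 3 and 3 of the genes were compared, with 1 higher in each and 0, 0 and 1 lower. Of all genes 9.17%, 11.7% and 12.1% were higher there.

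Of 11 genes known as E protein targets in the T lineage, 8 were measured. Rag1, which starts antigen receptor gene rearrangement, had 89 UMIs in B lymphocytes (655 CPM) and 0 in T lymphocytes, which allows up to 15.0 CPM. Cd4 was highest in T lymphocytes at 264 CPM, against 16.5 to 29.5 elsewhere. Cxcr4, a chemokine receptor, was 275 CPM in granulocytes, 272 in B lymphocytes, 181 in erythroblasts, 83.9 in progenitor/stem cells and 44.9 in T lymphocytes. Between T and B lymphocytes 2 of 4 were higher and 2 lower in T lymphocytes (median 0.28 beside 0.27 for all genes, of which 20.1% were higher and 9.86% lower). Against progenitor/stem cells, 2 of 3 were higher in T lymphocytes, 2 of 3 in B lymphocytes, 1 of 2 in granulocytes and 1 of 2 in erythroblasts, and 0 were lower. The shares of all genes higher were 9.17%, 7.51%, 11.7% and 12.1%. In both comparisons the genes higher in T lymphocytes also serve as markers of the T label, so those counts say little beyond the sort. Rag1 is also on the list of B lineage targets.

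Signalling genes known to act upstream of Id genes were measured for 11 of 13. Stat5b was 150 CPM in T lymphocytes, 123 in progenitor/stem cells and 99.1 in granulocytes, against 29.5 in B lymphocytes and 19.5 in erythroblasts. Smad4, the shared mediator of TGF-beta and BMP signals, was 195 CPM in T lymphocytes, 125 in B lymphocytes, 94.6 in progenitor/stem cells, 86.7 in granulocytes and 7.50 in erythroblasts. Gfi1b, a repressor of erythroid cells, was 141 CPM in erythroblasts and at most 26.4 elsewhere. In erythroblasts 5 of 6 genes were lower and 1 higher than in progenitor/stem cells (median -3.16 beside -0.98), where 49.4% of all genes were lower. In T lymphocytes 2 of 7 were higher and 2 lower, against 9.17% and 19.4% of all genes. In B lymphocytes 3 of 6 were lower, against 19.3%, and in granulocytes 2 of 6, against 48.2%. Between T and B lymphocytes 2 of 3 were higher in T lymphocytes, against 20.1%.

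Genes with a like pattern were found by the distance between log2(CPM + 10) values centred over the 5 populations, among 3906 genes with at least 100 UMIs, and as a description only. Nearest to Tcf3 were C1galt1 (distance 0.714, with 655 CPM in B lymphocytes and 123 in erythroblasts), Desi1 (0.898) and Myo1c (1.04), where the median gene lay at 2.96. Nearest to Tcf4 were Ccdc50 (0.500), Arid1b (0.580) and H2-DMa (0.653), with the median gene at 2.82. Arid1b stood at 383 CPM in B lymphocytes and 344 in progenitor/stem cells. Nearest to Tcf12 were Man1a (0.711), Phf2 (0.927) and Ap1ar (0.961). Nearest to Id2 were Mgst2 (1.22), Actn1 (1.28) and Fyb (1.29), the last at 539 CPM in T lymphocytes and 377 in granulocytes. With 5 populations and 1 sample of each, such likeness rests on few points that share their libraries and depth.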

How the data were processed

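Deposited values were UMI counts per gene and well, which the authors made with scPipe from reads of 1 plate. Which genome build, annotation and strand setting they used is not given in the sources used here, and the labels differ on where the barcode and UMI lie in read 1. Of the table's columns, 374 matched labelled wells and 9 did not and were not used. Ensembl IDs were matched to symbols with GENCODE M21, which left 74 of 19829 mouse genes without one. ERCC spike-ins were kept out of totals. UMIs were summed per population and divided by its UMIs on mouse genes (CPM). Intervals were exact Poisson (levels), binomial (shares) and conditional binomial (ratios) at 95%, with scipy 1.17.1 under Python 3.11.15. Scalings by scran 1.30.0 and by edgeR 4.0.16 TMM factors were alternatives. Totals per population were 135808 to 834812 UMIs. Interval coverage and fold calls were tested on simulated sums drawn with counting error alone, so that test does not cover spread between wells. Wells named as standing apart held at least 5 UMIs and 30% of a member's population sum. From each list the 3 genes with most UMIs are named, with exceptions stated, and 1 gene that this rule would name is not reported here. List genes without a row are not analysed here. Members, lists and markers were chosen with earlier results of these data known. Leaving out wells I17 and P3, or A4, A10 and A12, or the other sets of 3 wells by index channel, was added as an alternative after the data were seen.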

Additional observations from a re-analysis of the deposited data

How the results depend on the processing

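Counting error set the precision, since Id1 and Id3 had 14 and 15 UMIs and each population was 1 sample. Of 242 alternative values of member ratios between populations, 220 stayed within the counting interval of the main value, and none changed sign where the ratio was past 2-fold. Per ERCC UMI, a scaling that keeps differences in RNA per cell, ratios to progenitor/stem cells moved in B lymphocytes to 1.08 for Tcf3, -1.53 for Tcf4 and 0.34 for Tcf12, in T lymphocytes to -3.07 for Tcf4, 0.29 for Tcf12 and 3.17 for Id3 (as a bound), and in granulocytes to -2.40 for Tcf3, -3.19 for Tcf4 and 2.21 for Id1 (as a bound). Under scran and TMM factors Tcf4 moved to -1.41 and -1.47 in granulocytes and to -2.72 and -2.87 in erythroblasts, where Tcf3 moved to 1.53 and 1.37 and Tcf12 to 0.20 and 0.05. Without I17 and P3, Id2 in T lymphocytes moved to a bound of 2.06 over B lymphocytes and to 3.09 over progenitor/stem cells, and Tcf4 in granulocytes to -2.99. Without the highest well of the gene in each population the first and the last were 2.01 and -2.96. Id2 by CD3 in T lymphocytes turned from -1.60 to 0.42 without P3, the 1 reversal among 35 alternative values by index channel, and Tcf4 by FSC-A in B lymphocytes moved from -1.64 to -0.49 without wells A4, A10 and A12 and was -1.49 without A8 and B2. These settings by index channel were chosen after the data were seen. The E protein share was within its interval in 51 of 60 alternatives. It moved to 65.9% in T lymphocytes without P3, to 34.5% there without Tcf12 and 83.5% without Id2, to 24.0% in granulocytes without Tcf4 and 80.0% without Id2, to 94.2% in progenitor/stem cells without Tcf4, and to 100% without Id3 in B lymphocytes and without Id2 in erythroblasts and progenitor/stem cells. Of 46 shares of wells after thinning, 35 left their interval, all through lower depth, as thinning is built to do.

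Counts of genes past the fold moved by over 1.5 times as follows, with members named where their count moved. With a minimum of 10 UMIs they were 1180 higher and 656 lower in T against B lymphocytes (616 and 302 as reported), with 2 members higher, and 1092 higher in B lymphocytes against progenitor/stem cells (548), with 2 members higher in granulocytes and 2 lower in erythroblasts. With 50 UMIs they were 201 and 103 in T against B lymphocytes with 0 members higher, 249 higher in B lymphocytes, 339 and 723 in T lymphocytes (694 and 1466), 607 and 1894 in granulocytes (913 and 3769) and 1960 lower in erythroblasts (3989). At 3-fold they were 297 and 177 in T against B lymphocytes, 258 and 446 in B lymphocytes (1410 lower as reported), 332 and 512 in T lymphocytes with 1 member higher, and 582 higher in granulocytes. Centred on the median gene they were 879 and 779 in B lymphocytes, 1049 and 912 in T lymphocytes, 1916 and 1658 in granulocytes with 1 member lower, and 2009 and 2454 in erythroblasts with 1 member higher. Under scran size factors they were 836 and 796 in B lymphocytes, 1739 and 1888 in granulocytes with 1 member lower, and 2071 and 2419 in erythroblasts with 1 member higher. Under TMM factors they were 1647 and 2055 in granulocytes and 1832 and 2596 in erythroblasts with 1 member higher. Without the most abundant genes in the totals 899 were lower in B lymphocytes. Per ERCC UMI 1067 were higher in T than in B lymphocytes, 133 and 5776 in B lymphocytes with 1 member higher and 1 lower, 247 and 4316 in T lymphocytes with 1 higher and 2 lower, and 455 and 5741 in granulocytes. No paired analysis was possible because the populations come from 1 mouse and share no replicate numbers.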
